A study of Mus musculus with 2 samples.

Results

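The 10 genes described here are the inhibitor of DNA binding genes Id1, Id2 and Id3, the type I BMP receptor gene Bmpr1a, the BMP Smad genes Smad1 and Smad5, the inhibitory Smad genes Smad6 and Smad7, and the TGF-beta receptor genes Tgfbr1 and Tgfbr2. They were taken by mouse symbol, and all 10 were found among the 27321 genes listed in the 2 short-read gene tables and among the 12032 genes of the long-read isoform table. Their levels were compared between barcodes of 3000 to 15000 UMIs that hold 0 UMIs of the cycling genes Rrm2, Top2a and Cdk1, called shallow here, and barcodes of at least 20000 UMIs, called deep here. These are ranges of UMIs and not cell types.

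The data are from MuSCs, the stem cells of skeletal muscle, taken from Pax7CreERT2;R26RYFP mice of 3 months with a C57BL6 background. All mice received tamoxifen for 5 days, so that cells expressing Pax7 at that time, and their progeny, carried YFP. Hindlimb muscle was collected 2 weeks later, either uninjured, for quiescent cells, or 72 h after injury with 1.2% barium chloride, for activated cells. YFP-positive cells of both kinds were sorted and run together in 1 10x 3′ capture, so no label gives the origin of a cell, and the number of mice is not given in the sources used here. The GEMs of that capture were divided into a 10% library, sequenced with short and with nanopore long reads, and a 90% library, sequenced with short reads. There is 1 library of each kind, so no test between classes was possible, and every interval given is a 95% interval that covers counting error only.

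The short-read tables hold 6772259 UMIs over 1991 barcodes in the 10% library and 39044129 UMIs over 3001 barcodes in the 90% library. The tables are not separate sets of cells. Of the 269 barcodes with at least 3000 UMIs in the 10% library, all 269 are listed in the 90% library and 263 hold at least 3000 UMIs in both. Over genes, these 263 barcodes had a median correlation of 0.931 with themselves in the other table and of 0.686 with other barcodes, and 262 were closest to themselves. Values of the 90% library are therefore also given without these shared barcodes. The shallow class held 157 barcodes in the 10% library (median 6729 UMIs and 1652 genes) and 1243 in the 90% library (4680 UMIs and 1366 genes). The deep class held 79 (65499 UMIs and 5973 genes) and 606 barcodes (47106 UMIs and 5371 genes). Without the shared barcodes, 1093 shallow and 516 deep barcodes of the 90% library were left. Doublets were neither called nor removed.

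The labelled cell type was checked against 8 muscle stem cell markers, all found in both classes of both libraries, which summed to 1454 CPM (counts per 1000000 UMIs of the class) in shallow and 577 CPM in deep barcodes of the 10% library and to 1960 and 702 CPM in the 90% library. The 7 markers of quiescence (Calcr, Spry1, Chrdl2, Heyl, Notch3, Cd34 and Pax7) summed to 520 CPM in shallow and 41.8 CPM in deep barcodes of the 10% library, and to 608 and 41.0 CPM in the 90% library. The activation gene Myod1 was at 1106 against 185 CPM and 1069 against 213 CPM, so the shallow class also carries this marker of activation. The 6 genes listed for activated or differentiating cells, Myod1 among them, summed to 1113.5 against 333 CPM and 1115 against 416 CPM. Myod1 made up nearly all of the shallow sums. The rest of that list (Myog, Mymk, Ccnb1, Mki67 and Mcm5) summed to less in shallow than in deep barcodes of both libraries. Mymk was at 0 in shallow barcodes of the 10% library. Ccnb1, Mki67 and Mcm5 are cycling genes, and shallow barcodes were chosen to hold 0 UMIs of the cycling genes Rrm2, Top2a and Cdk1. This lower sum is therefore not read as a check of cell type. The 10 immediate-early and dissociation genes summed to 2534 against 483 CPM and 3462 against 458 CPM. Of the lists of other cell types, fibro-adipogenic genes summed to 200 against 47.5 and 307 against 44.7 CPM, with Pdgfra at 0 in the shallow barcodes of both libraries, and endothelial genes summed to 19.7 against 6.47 and 15.03 against 6.76 CPM. The sums were 322 against 87.3 and 264 against 2.91 CPM for immune genes, 84.3 against 78.4 and 91.4 against 48.2 CPM for pericyte and smooth muscle genes, and 64.6 against 1.96 and 3.87 against 1.61 CPM for glia genes. At least 2 UMIs of the fibro-adipogenic genes were held by 48 of 157 (30.6%) and 409 of 1243 (32.9%) shallow barcodes, of the pericyte and smooth muscle genes by 21 and 112, of the immune genes by 1 and 10, of the endothelial genes by 1 and 9 and of the glia genes by 1 and 3. Deep barcodes, which hold more UMIs, passed this in 32 of 79 (40.5%) and 241 of 606 (39.8%) for the fibro-adipogenic genes. For the pericyte and smooth muscle genes 24 and 171 deep barcodes passed, and for the immune genes 3 and 8. For the endothelial genes it was 10 and 47, and for the glia genes 2 and 3. The part of these differences in the results was not tested beyond the subsets given with them.

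As background, Id proteins are helix-loop-helix proteins without a DNA-binding region. They bind E proteins such as those of Tcf3 and Tcf4 and so keep myogenic factors such as Myod1 from pairing with them. BMP ligands bind type II receptors and type I receptors such as Bmpr1a, which phosphorylate Smad1 and Smad5, and these enter the nucleus with Smad4 and switch on the Id genes. TGF-beta binds Tgfbr2, which recruits Tgfbr1 to phosphorylate Smad2 and Smad3. Smad6 and Smad7 are induced by these pathways and dampen them. In muscle, both pathways are known to restrain differentiation of stem cells.

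Id3 was the member with the highest level in both classes, and it made up a larger part of the UMIs of shallow than of deep barcodes. In the 10% library Id3 was at 773 CPM (722 to 826) in shallow barcodes from 861 UMIs and at 205 CPM (193 to 218) in deep barcodes from 1044 UMIs. In the 90% library it was at 964 CPM (940 to 988) from 6217 UMIs and at 217 CPM (212 to 222) from 6485 UMIs. Both shallow values lay above both deep values, and the intervals did not overlap. The ratio of shallow to deep CPM was 3.77 (3.44 to 4.13) and 4.44 (4.29 to 4.597), and 4.55 (4.38 to 4.73) without the shared barcodes. CPM is a share of the UMIs of a class. Per barcode, Id3 had 5.48 UMIs in shallow and 13.2 in deep barcodes of the 10% library, and 5.002 and 10.7 in the 90% library.

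Id1 and Id2 did not follow Id3. Id1 was at 47.6 CPM (35.6 to 62.2) in shallow and 68.8 CPM (61.8 to 76.4) in deep barcodes of the 10% library, and at 59.4 (53.6 to 65.6) and 76.1 CPM (73.0 to 79.3) in the 90% library. Its ratios were 0.691 (0.507 to 0.924) and 0.780 (0.698 to 0.869), under 1 in both libraries, but 0.893 and 1.01 when set over the median ratio of all genes. Id2 was at 96.0 CPM (78.7 to 116) against 89.2 CPM (81.2 to 97.8) in the 10% library and at 134 CPM (125 to 143) against 161 CPM (157 to 166) in the 90% library. The ratios of Id2, 1.08 (0.863 to 1.33) and 0.831 (0.772 to 0.893), lay on either side of 1, and set over the median ratio they were 1.39 and 1.08. Without the shared barcodes the ratio was 0.847 (0.753 to 0.951) for Id1 and 0.829 (0.766 to 0.895) for Id2.

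**Figure D1:**
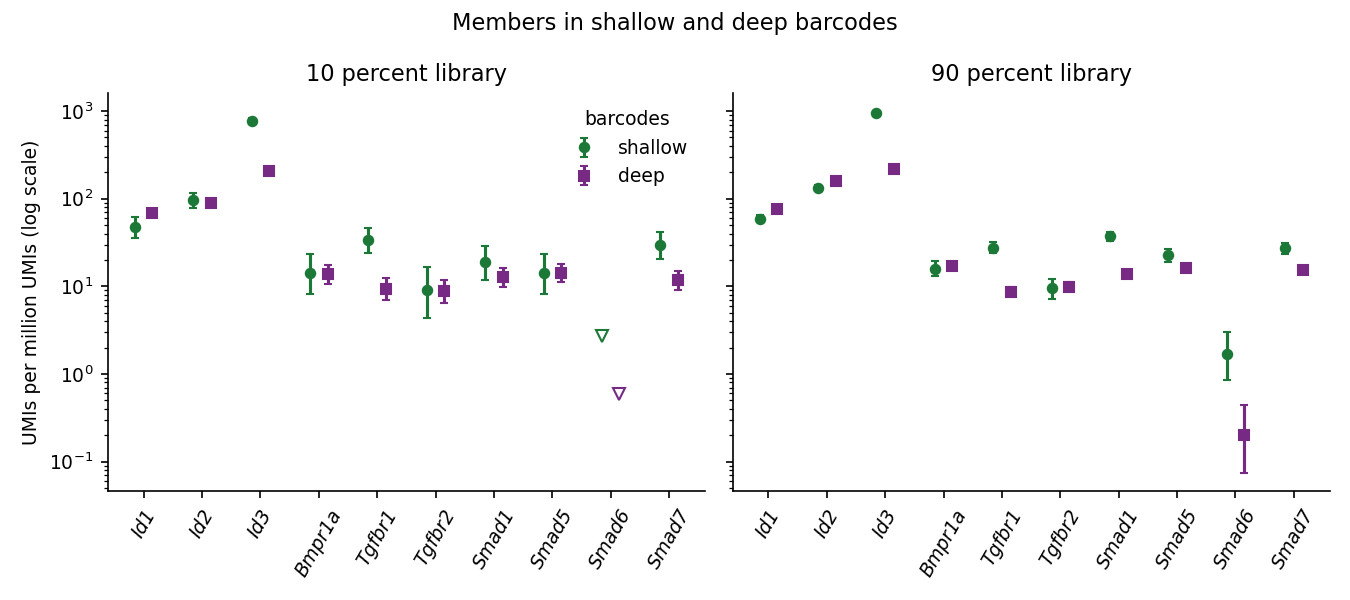
CPM on a log axis of the 10 members in the 10% and the 90% library, one panel each. Circles are shallow and squares deep barcodes, bars are exact Poisson 95% intervals, and open triangles mark the level of 3 counts where a class holds 0 UMIs, as Smad6 does in the 10% library. Id3 at 773 and 964 CPM in shallow barcodes is the highest value of each panel.

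The median ratio over the 7052 genes with at least 50 UMIs over both classes in each library was 0.773 in the 10% library (log2 -0.37) and 0.769 in the 90% library (log2 -0.38), so a gene at the median had a lower CPM in shallow barcodes. Of these genes, 849 (12%) were at least 2-fold higher in shallow barcodes in both libraries and 1941 (27.5%) at least 2-fold lower. With ratios set over the median ratio of each library, these shares were 17.6% and 19.4%, and Smad7 passed as well. Of the 10 members, 9 reached the minimum of 50 UMIs. Among these, Id3 and Tgfbr1, 2 of 9, were at least 2-fold higher and 0 were lower. With so few genes this count is not read as a result about the members as a set. With the shared barcodes left out of the 90% library, the same 2 genes passed, against 824 of 7043 genes (11.7%), and 0 were lower, against 1904 (27.0%). The median ratio of the 9 members was 1.08 in the 10% and 1.41 in the 90% library. Over the median gene, Id3 was 4.88-fold and 5.77-fold higher and ranked 425 and 353 by ratio among the 7052 genes.

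**Figure D2:**
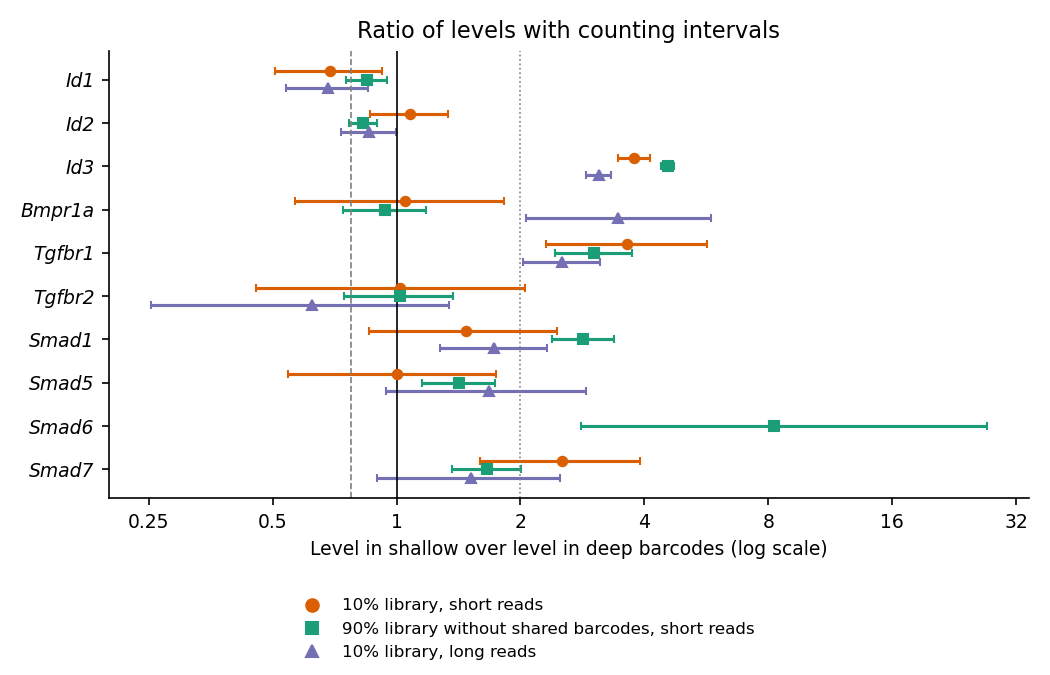
Ratio of shallow to deep CPM on a log axis for each member, from the short reads of the 10% library (circles), those of the 90% library without shared barcodes (squares) and the long reads of the 10% library (triangles), with 95% intervals. The solid line marks 1, the dotted line 2 and the dashed line 0.773, the median of all genes tested in the 10% library. Id3 and Tgfbr1 lie above 2 in all 3 sets. Circles and triangles come from the same barcodes, and the long-read UMIs of Tgfbr1 lie on isoforms that stop short of the gene end.

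The share of each Id gene in the sum of their UMIs shows the shift within the family, where each 3′ UMI stands for 1 captured molecule. Id3 took 84.3% (82.0 to 86.5%) of the 1021 Id1, Id2 and Id3 UMIs of shallow barcodes in the 10% library and 56.4% (54.1 to 58.7%) of the 1850 of deep barcodes. In the 90% library it took 83.3% (82.4 to 84.1%) of 7464 and 47.8% (46.9 to 48.6%) of 13575 UMIs. Id1 took 5.19% and 5.13% in shallow and 19.0% and 16.8% in deep barcodes, and Id2 10.5% and 11.6% against 24.6% and 35.5%. The share of Id3 was close between the libraries in shallow barcodes and further apart in deep barcodes, where the intervals do not overlap.

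**Figure D3:**
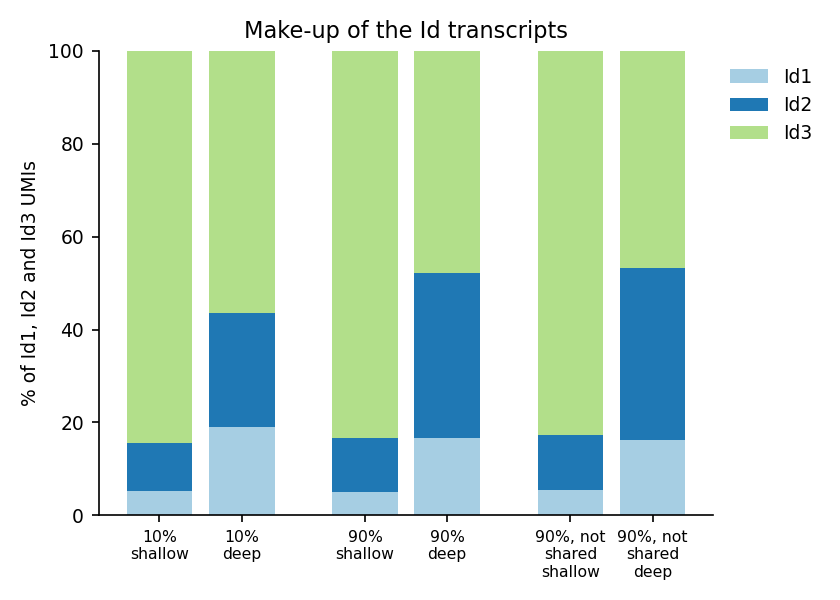
Share in percent of Id1, Id2 and Id3 in the sum of their UMIs, stacked to 100, for shallow and deep barcodes of the 10% library, the 90% library and the 90% library without shared barcodes. Id3 takes 82.7 to 84.3% in shallow and 46.7 to 56.4% in deep barcodes.

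Single barcodes varied widely. Id3 ranged from 0 to 8220.9 CPM over the 157 shallow barcodes of the 10% library, with a median of 306 CPM, and from 0 to 12224.4 CPM over the 1243 of the 90% library, with a median of 315 CPM. The medians of the deep barcodes were 99.6 and 111 CPM. No Id3 UMI was found in 32.5% and 36.1% of shallow and in 12.7% and 14.2% of deep barcodes. The tenth of shallow barcodes with the most Id3 UMIs held 53.7% and 50.4% of them, and that of deep barcodes 43.4% and 41.1%. In both classes the level is thus set to a large part by few barcodes. To compare detection at 1 depth, each barcode was thinned to 3000 UMIs. Id3 was then found in 55.4% (47.3 to 63.3%) of shallow and 40.5% (29.6 to 52.1%) of deep barcodes of the 10% library, where the intervals overlap, and in 56.2% (53.4 to 59.0%) and 36.3% (32.5 to 40.3%) in the 90% library. Before thinning the shares were 67.5% against 87.3% and 63.9% against 85.8%. Thinned shares of Id1 were 9.55% against 13.9% and 10.9% against 19.1%, and those of Id2 18.5% against 25.3% and 23.0% against 27.9%.

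More than 1 Id gene was found in few thinned barcodes of either class. In the 90% library, 31.9% of shallow barcodes held none of Id1, Id2 and Id3, 48.4% held 1, 17.4% held 2 and 2.33% held all 3. Of deep barcodes 48.5% held none, 27.2% held 1, 16.7% held 2 and 7.59% held all 3. Deep barcodes with an Id1 UMI held Id3 in 69.0% of cases and those without in 28.6%, whereas in shallow barcodes these shares were 63.2% and 55.4%. In the 10% library, with 11 deep and 15 shallow barcodes that hold Id1, they were 63.6% and 36.8% in deep and 53.3% and 55.6% in shallow barcodes, so the order in shallow barcodes differed between the libraries. These shares describe barcodes of 1 capture.

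By depth, Id3 was lower in each step from 15000 UMIs upward. In the 90% library it was at 1017 CPM in shallow barcodes of 3000 to 6000 UMIs, 910.5 CPM at 6000 to 10000 and 720 CPM at 10000 to 15000, then at 462 CPM at 15000 to 20000, 262 CPM at 20000 to 40000 and 207 CPM from 40000 UMIs. In the 10% library the 3 shallow steps were at 660, 956 and 482 CPM and the following at 417, 339 and 189 CPM. The barcodes of 3000 to 15000 UMIs that do hold a cycling UMI, 21 and 148 in number, were at 645 and 772 CPM. Barcodes under 500 UMIs, taken as the level of free RNA, were at 362 (215 to 572) and 354 CPM (246 to 492), below the shallow and above the deep values of both libraries. Id1 in the same barcodes was at 221 CPM (110 to 396) from 11 UMIs in the 10% library and 60.6 CPM (22.2 to 132) from 6 UMIs in the 90% library.

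**Figure D4:**
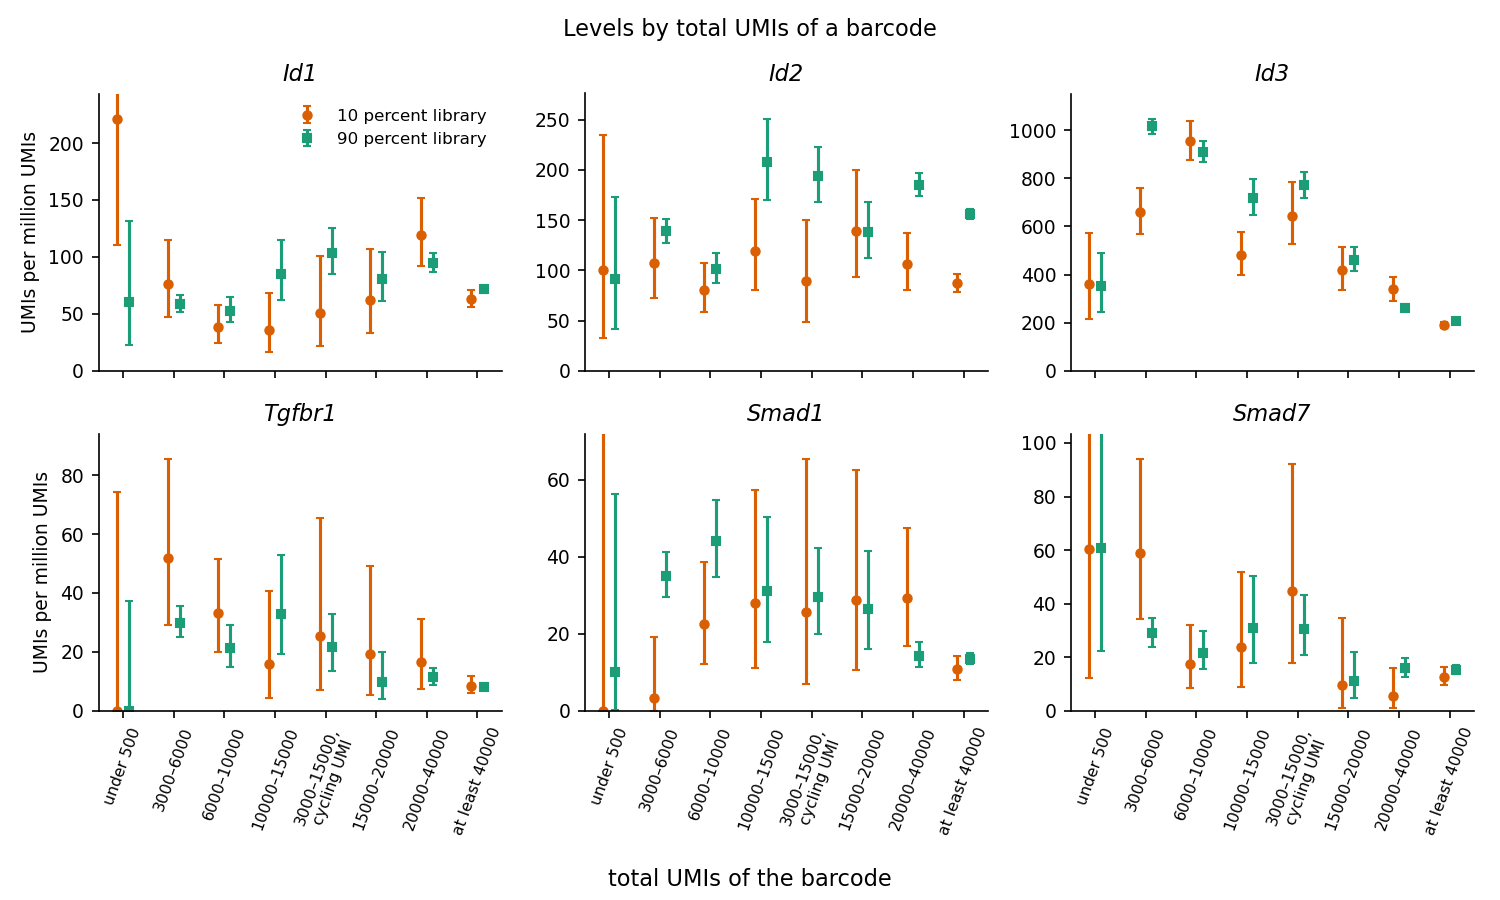
CPM by bin of total UMIs per barcode for Id1, Id2, Id3, Tgfbr1, Smad1 and Smad7 in both libraries, with Poisson 95% intervals. The bars of barcodes under 500 UMIs may run past a panel. Id3 was at 660 and 1017 CPM in shallow barcodes of 3000 to 6000 UMIs and at 189 and 207 CPM in barcodes of at least 40000 UMIs.

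The level of Id3 in shallow barcodes moved with the immediate-early genes. Shallow barcodes at or below the median immediate-early CPM had 536 CPM of Id3 in the 10% library and 645 CPM in the 90% library, and those above it 1005 and 1299 CPM. Against all deep barcodes the ratio was 2.62 (2.29 to 2.98) and 2.97 (2.83 to 3.12) for the first subset. It was 4.91 (4.42 to 5.44) and 5.99 (5.75 to 6.23) for the second. Id3 was thus over 2-fold higher in both subsets, but neither is matched to the deep barcodes. The first subset had a mean immediate-early level of 1037 and 1357 CPM, where deep barcodes summed to 483 and 458 CPM. Whether Id3 differs at equal immediate-early levels was not tested. Shallow barcodes without a Myod1 UMI had ratios of 3.39 and 4.29, and those with one 4.11 and 4.59. Shallow barcodes without a UMI of the 7 markers of quiescence, 32 and 258 in number, had ratios of 1.98 (1.56 to 2.48) and 2.63 (2.43 to 2.84), against 4.16 and 4.86 for those with one. They also held fewer UMIs, with medians of 5502 and 4183.5. Shallow barcodes with under 2 UMIs of other cell types had ratios of 3.35 and 4.76. With both classes limited to such barcodes, which leaves 95 and 24 in the 10% and 759 and 211 in the 90% library, the ratio was 2.58 and 4.93.

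Tgfbr1, the type I receptor of TGF-beta, was the other member at least 2-fold higher in shallow barcodes. It was at 34.1 CPM (24.1 to 46.8) from 38 UMIs in shallow and 9.41 CPM (6.94 to 12.5) from 48 UMIs in deep barcodes of the 10% library. The 90% library had it at 27.7 CPM (23.8 to 32.1) from 179 and 8.70 CPM (7.68 to 9.83) from 260 UMIs. The ratios were 3.62 (2.30 to 5.66) and 3.19 (2.62 to 3.87), and 3.01 (2.42 to 3.73) without the shared barcodes, with ranks of 450 and 549. Thinned, Tgfbr1 was found in 7.01% against 2.53% and in 7.32% against 1.98% of barcodes. UMIs per barcode were again lower in the shallow class, 0.242 against 0.608 and 0.144 against 0.429. Shallow barcodes at or below the median immediate-early level had ratios of 2.50 and 3.16, and those above it 4.72 and 3.22. No Tgfbr1 UMI was found in barcodes under 500 UMIs, where the 3 counts that a count of 0 allows are 60.4 and 30.3 CPM, above the shallow levels.

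In short reads the other receptors were alike in both classes within wide limits, whereas long reads gave Bmpr1a a ratio of 3.45 (2.06 to 5.80). Tgfbr2, the TGF-beta receptor that binds the ligand, was at 8.97 against 8.82 CPM in the 10% library and 9.45 against 9.87 CPM in the 90% library, with ratios of 1.02 (0.457 to 2.05) and 0.957 (0.714 to 1.27). Bmpr1a was at 14.4 against 13.7 CPM and 16.0 against 16.9 CPM, with ratios of 1.05 (0.567 to 1.82) and 0.943 (0.755 to 1.17). At this depth a 2-fold difference of Tgfbr2 lies within the interval of the 10% library and outside that of the 90% library. Without the shared barcodes the ratios were 1.02 (0.743 to 1.37) and 0.939 (0.740 to 1.18). Set over the median ratio of all genes, the ratios of the 10% and the 90% library were 1.31 and 1.25 for Tgfbr2 and 1.35 and 1.23 for Bmpr1a.

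Of the Smads that carry the BMP signal, Smad1 was at 18.8 CPM (11.7 to 28.8) from 21 UMIs against 12.7 CPM from 65 UMIs in the 10% library, and at 37.2 CPM (32.6 to 42.2) from 240 against 13.7 CPM (12.4 to 15.05) from 408 UMIs in the 90% library. Its ratio was over 2-fold in the 90% library only, 2.72 (2.31 to 3.20) against 1.48 (0.858 to 2.45), and the intervals overlap. In the 10% library the 61 barcodes of 3000 to 6000 UMIs held 1 Smad1 UMI, a level of 3.46 CPM (0.0875 to 19.3), where the 952 of the 90% library were at 35.0 CPM (29.5 to 41.2). Smad5 was at 14.4 against 14.3 CPM and 22.6 against 16.1 CPM, with ratios of 1.00 (0.545 to 1.74) and 1.41 (1.16 to 1.69).

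Of the inhibitory Smads, Smad7 was at 29.6 CPM (20.4 to 41.6) from 33 UMIs against 11.8 CPM (8.98 to 15.1) from 60 UMIs in the 10% library, and at 27.1 CPM (23.3 to 31.5) against 15.5 CPM (14.1 to 16.9) in the 90% library. The ratio passed 2 in the 10% library, at 2.52 (1.59 to 3.91), and not in the 90% library, at 1.75 (1.47 to 2.09), or 1.66 (1.36 to 2.01) without the shared barcodes. Set over the median gene, Smad7 was 3.25-fold and 2.28-fold higher. Barcodes under 500 UMIs had 60.4 CPM (12.4 to 176) and 60.6 CPM (22.2 to 132) from 3 and 6 UMIs, and both intervals hold the shallow level. Smad6 had 1 UMI in the whole 10% table and 0 in either class, where the 3 counts that a count of 0 allows are 2.69 CPM in shallow and 0.588 CPM in deep barcodes. The 90% library had 11 UMIs in shallow and 6 in deep barcodes, or 1.70 and 0.201 CPM, a ratio of 8.49 (2.88 to 28.0). Its 20 UMIs there lay in 18 barcodes, at most 2 in each, and these barcodes held 0 UMIs of the endothelial markers.

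Beyond the members, 74 genes were taken in 7 lists, of which 1 holds helix-loop-helix genes whose products can meet Id proteins and the others hold genes of the BMP and TGF-beta pathways. Of these, 34 reached the minimum and 18 were at least 2-fold higher and 4 at least 2-fold lower in shallow barcodes, beside the 12% and 27.5% of all genes. Their median ratio was 3.11 in the 10% and 3.34 in the 90% library, against 0.773 and 0.769 for all genes. With the shared barcodes left out, 18 were higher and 3 lower, as Myog passed out of the second count. The lists were chosen with earlier results of these data known. They hold the markers of quiescence Chrdl2 and Heyl and the immediate-early gene Junb. Some genes, such as Chrdl2 in the 10% library, reached the minimum only through their UMIs in shallow barcodes. These counts and medians are therefore not read as a result about the pathways.

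Ligands and the proteins that store them were mostly too low to count. Of 11 BMP ligands 1 reached the minimum, Bmp4, at 41.3 against 3.92 CPM and 56.1 against 1.71 CPM, ratios of 10.5 and 32.9. Bmp6 had 29 UMIs in shallow and 0 in deep barcodes of the 10% library, which makes it at least 44.2-fold higher at a floor of 3 counts, and 173 and 6 UMIs in the 90% library. Bmp7, Gdf5, Gdf6, Mstn, Grem1 and Sostdc1 had no entry in the 10% table and at most 5 UMIs over both classes in the 90% library. Of 7 TGF-beta ligand and storage genes 4 were counted and 2 were higher, Tgfb2 (4.40-fold and 4.28-fold) and Ltbp4, which binds latent TGF-beta in the matrix (24.6-fold and 48.2-fold).

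Of 12 other receptors and co-receptors 4 were counted and 3 were higher. These were Bmpr2, the type II BMP receptor (3.14-fold and 3.69-fold), and the BMP co-receptors Rgma (6.03-fold and 6.01-fold) and Rgmb (3.08-fold and 3.32-fold). Tgfbr3, the co-receptor betaglycan, had 23 UMIs in shallow and 0 in deep barcodes of the 10% library, and 179 and 30 in the 90% library. Of 13 secreted antagonists 5 were counted and 2 were higher. Chrdl2, which binds BMPs and is also one of the markers of quiescence, was at 155 CPM against 0.196 CPM from 1 UMI in the 10% library, a ratio of 792 (140 to 31442), and at 215 against 1.34 CPM in the 90% library. Fstl1 was 4.25-fold and 7.43-fold higher.

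Of 12 other Smads and Smad regulators 7 were counted, 3 were higher and 1 lower. The higher were Tgif1 (9.22-fold and 8.08-fold) and Skil (6.60-fold and 6.44-fold), which repress Smad-driven transcription, and Bambi (7.23-fold and 9.59-fold), a receptor without a kinase that acts as a decoy. Smad2, which carries the TGF-beta signal, was lower, with ratios of 0.376 and 0.465. Of 12 genes listed as targets of the pathways 7 were counted, 4 were higher and 1 lower. Ccn2, a matrix protein gene, was at 52.9 against 1.18 CPM and 51.5 against 1.27 CPM, and Heyl (10.7-fold and 23.5-fold) and Junb (8.28-fold and 9.73-fold) were also higher, as was the cell cycle inhibitor gene Cdkn1a (3.34-fold and 3.31-fold). Heyl is also a marker of quiescence and Junb an immediate-early gene, so these lists overlap. The cell cycle inhibitor gene Cdkn2b was lower, at 0.153 and 0.230.

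Of 7 helix-loop-helix genes whose products can meet Id proteins 6 were counted, 3 were higher and 2 lower. Myf5 (12.6-fold and 8.03-fold), Myod1 (5.98-fold and 5.01-fold) and the E protein gene Tcf4 (2.89-fold and 2.88-fold) were higher. The E protein gene Tcf3 was lower, at 0.370 and 0.261. Myog, which acts in differentiation, was lower too, at 1.79 against 33.1 CPM in the 10% library and 36.7 against 74.6 CPM in the 90% library, ratios of 0.0541 and 0.492. The E protein genes Tcf3 and Tcf4 thus lay on opposite sides of 1.

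Over the 16 depth bins of both libraries, the genes closest to Id3 in log2 CPM, of 3172 compared, were Map1lc3a (Pearson r 0.976), Rhoj (0.969), Ccnl1 (0.966), Pxdc1 (0.962) and Gpx3 (0.952). Those closest to Id1 were Psmd4 (0.836), Baiap2 (0.833), Hsd17b12 (0.831), Rbm38 (0.788) and Nap1l4 (0.784). The bins share libraries and a scale of depth, and the 2 libraries share cells, so these values only describe the bins.

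The sequences just upstream of the RefSeq starts of Id3 and Tgfbr1, the members that were higher, and of Id2, which was not, are shown. Marked are the motifs that Smads are known to bind, GGCGCC, its own reverse complement, and CAGAC on either strand, read as GTCTG on the other. Each window is the 250 bases before the RefSeq start in GRCm38.p6, written 5′ to 3′ on the strand of the gene, with these motifs in capitals. The Id3 and Id2 windows lie inside the Gencode spans of these genes, which begin further upstream, and the Tgfbr1 window lies outside its span.
Id3 chr4:136143572-136143821, plus strand: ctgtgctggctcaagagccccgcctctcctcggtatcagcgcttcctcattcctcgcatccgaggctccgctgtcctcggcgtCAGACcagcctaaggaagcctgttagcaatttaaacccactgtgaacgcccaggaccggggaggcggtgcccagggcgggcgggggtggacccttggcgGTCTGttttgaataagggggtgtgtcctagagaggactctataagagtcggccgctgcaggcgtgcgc
Tgfbr1 chr4:47352972-47353221, plus strand: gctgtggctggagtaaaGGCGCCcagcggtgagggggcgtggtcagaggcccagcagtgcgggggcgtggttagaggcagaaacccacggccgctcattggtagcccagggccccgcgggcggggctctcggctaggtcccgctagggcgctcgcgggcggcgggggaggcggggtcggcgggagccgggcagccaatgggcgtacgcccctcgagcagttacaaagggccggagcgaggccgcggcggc
Id2 chr12:25096093-25096342, minus strand: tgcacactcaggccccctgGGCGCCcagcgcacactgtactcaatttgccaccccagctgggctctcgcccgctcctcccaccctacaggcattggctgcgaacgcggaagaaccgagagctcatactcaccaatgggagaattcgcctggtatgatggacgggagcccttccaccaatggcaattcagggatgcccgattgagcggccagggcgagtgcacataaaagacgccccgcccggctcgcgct
Tgfbr1 has 2 windows in the table, of which the one at the annotated gene start is shown. The Id3 window holds CAGAC 167 and 68 bases before the start and no GGCGCC. The windows shown for Tgfbr1 and Id2 hold GGCGCC 233 and 231 bases before the start, and Bmpr1a holds one 198 bases before. Tgfbr2 holds CAGAC 160 bases before the start, and the windows of Smad1 and Smad6 hold neither motif. The second Tgfbr1 window holds CAGAC 203 bases before its start. Of the 3 Smad5 windows, 1 holds GGCGCC 19 bases and 1 holds CAGAC 21 bases before its start. Of 32851 promoter windows of this length, 9.59% hold GGCGCC and 42.2% hold CAGAC on either strand, and 66.2% hold the E-box CANNTG, which the Id3 window lacks. Each motif was thus found both in a window of a member that was higher and in a window of a member that was not. Id1 and Smad7 have no entry in the table used.

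Long reads of the 10% library gave the levels of the same barcodes from other reads, with 1382498 UMIs in shallow and 4628237 in deep barcodes. Id3 was at 1144 CPM of long-read UMIs (1089 to 1202) from 1582 UMIs in shallow and 369 CPM (352 to 387) from 1709 in deep barcodes, a ratio of 3.10 (2.89 to 3.32). Tgfbr1 was at 112 CPM (95.2 to 131) against 44.5 CPM (38.6 to 51.0), a ratio of 2.52 (2.03 to 3.12). Id1 was at 67.3 against 99.0 CPM, 0.680 (0.538 to 0.851), and Id2 at 149.7 against 175 CPM, 0.857 (0.732 to 0.999). Smad1 had a ratio of 1.72 (1.27 to 2.32), Smad5 of 1.67 (0.942 to 2.89), Smad7 of 1.52 (0.895 to 2.50) and Tgfbr2 of 0.623 (0.253 to 1.34). Bmpr1a differed between the methods, with 33 and 32 long-read UMIs and a ratio of 3.45 (2.06 to 5.80), where short reads gave 1.05 (0.567 to 1.82).

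Id2 lies on the minus strand of chromosome 12, at 25093799 to 25097140 in GRCm38. Its reference transcript ENSMUST00000020974.6 took 89 of 207 UMIs, 43.0% (36.2 to 50.04%), in shallow and 549 of 809, 67.9% (64.5 to 71.1%), in deep barcodes. The difference was -24.9 points (-32.1 to -17.3), past the 20 points set for a call. Of the 10 members 5 had at least 50 long-read UMIs in each class, and Id2 was the only 1 of the 5 called, beside 564 of 3230 genes (17.5%). The other 8 Id2 isoforms have no reference name. Those ending within 2 bases of the reference end, 25093799 against 25093801, took 12.1% and 11.6% in shallow and 3.58% and 1.73% in deep barcodes. Their exon structures were not used, since the numbering of unnamed isoforms differs between the count table and the deposited annotation.

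Grouped by 3′ end instead, the Id2 difference was smaller. The last 30 bases before the 3 Id2 ends and the 2 Id3 ends with the most UMIs, in the 3′ untranslated region of Id2 and, for the longer Id3 end, in an exon of a non-coding reference transcript, are shown for the polyadenylation hexamers AATAAA and ATTAAA, in capitals.
Id2, chr12:25093801-25093830, minus strand: ttaagattatAATAAAatgtgtctgacatc
Id2, chr12:25093937-25093966, minus strand: ttatacaaAATAAAtcaagtgtgtttattg
Id2, chr12:25094297-25094326, minus strand: ctttatatactattcccaccatggggagcg
Id3, chr4:136145363-136145392, plus strand: ttgcatAATAAAccatttttgaacactttg
Id3, chr4:136145726-136145755, plus strand: tatttcgtatttaAATAAActgcctccatt
The hexamer starts 20 and 22 bases before the first and second Id2 end, and none is found before the end at 25094297. It starts 24 and 17 bases before the Id3 ends. An Id2 end at 25095130 with 6 UMIs and an Id3 end at 136144973 with 5 UMIs are not shown. Of 48042 coding transcripts of the reference, 25716 (53.5%) hold either hexamer in their last 30 bases. The Id2 end at 25093799 to 25093801 took 66.7% of shallow and 73.2% of deep UMIs, a difference of -6.51 points (-13.8 to 0.329), and that at 25093937 took 15.9% and 19.0%. The end at 25094297, without a hexamer, took 15.9% (11.2 to 21.7%) in shallow and 7.54% (5.82 to 9.58%) in deep barcodes, 8.40 points more (3.59 to 14.2).

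Id3, on the plus strand of chromosome 4 at 136143497 to 136145755, showed no such difference. The end at 136145392, that of its coding reference transcript, took 48.6% of shallow and 47.7% of deep UMIs, and the end at 136145755, 363 bases further, took 51.2% and 52.3%, a difference of -1.05 points (-4.46 to 2.36). The share of each end depends on the table. In the deposited annotation, 5905 of 6111 supporting reads of Id3 (96.6%) are on isoforms that end at 136145392 and 163 (2.67%) on those that end at 136145755. Which table describes the RNA was not tested. The Id1 reference transcript, on chromosome 2 at 152736251 to 152737410, took 94.6% in shallow and 98.5% in deep barcodes.

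Tgfbr1, on the plus strand of chromosome 4 at 47353222 to 47414931, was counted on 3 isoforms that all stop 28173 to 30892 bases short of the gene end. The end at 47386758, in an intron, took 81.3% of 155 shallow and 89.8% of 206 deep UMIs, a difference of -8.52 points (-16.2 to -1.27), and that at 47384039, also in an intron, 17.4% and 5.83%, 11.6 points more (5.01 to 18.8). The end at 47386463, in a coding exon, took 1.29% and 4.37%. None of the 488 UMIs lay on an isoform that spans the coding region of ENSMUST00000007757.14, a share of 0% (0 to 0.753%). In the deposited annotation, 84 of 158 supporting reads (53.2%) are on isoforms that do span it. The long-read level of Tgfbr1 is thus that of short 5′ isoforms in the count table, while the short reads count 3′ tags. Smad7 was also counted with 0 of 101 UMIs and Smad6 with 0 of 7 UMIs across the coding region. Their isoforms instead reach to within 312 bases of the gene end and begin after the start of the coding region. All 773 UMIs of Id1, 1409 of Id2, 4807 of Id3, 88 of Bmpr1a and 285 of Smad1 spanned it. For Smad5 it was 68 of 86 and for Tgfbr2 96 of 112. In the deposited annotation, only 24 of 129 supporting reads of Bmpr1a (18.6%) are on isoforms that span its coding region.

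Smad1, on the minus strand of chromosome 8 at 79338395 to 79399518, ended at 79338395 in 60% of 70 shallow and 66.9% of 136 deep UMIs. The end at 79339359 to 79339362, 964 bases earlier, took 38.6% and 26.5%, a difference of 12.1 points (-1.11 to 25.6).

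**Figure D5:**
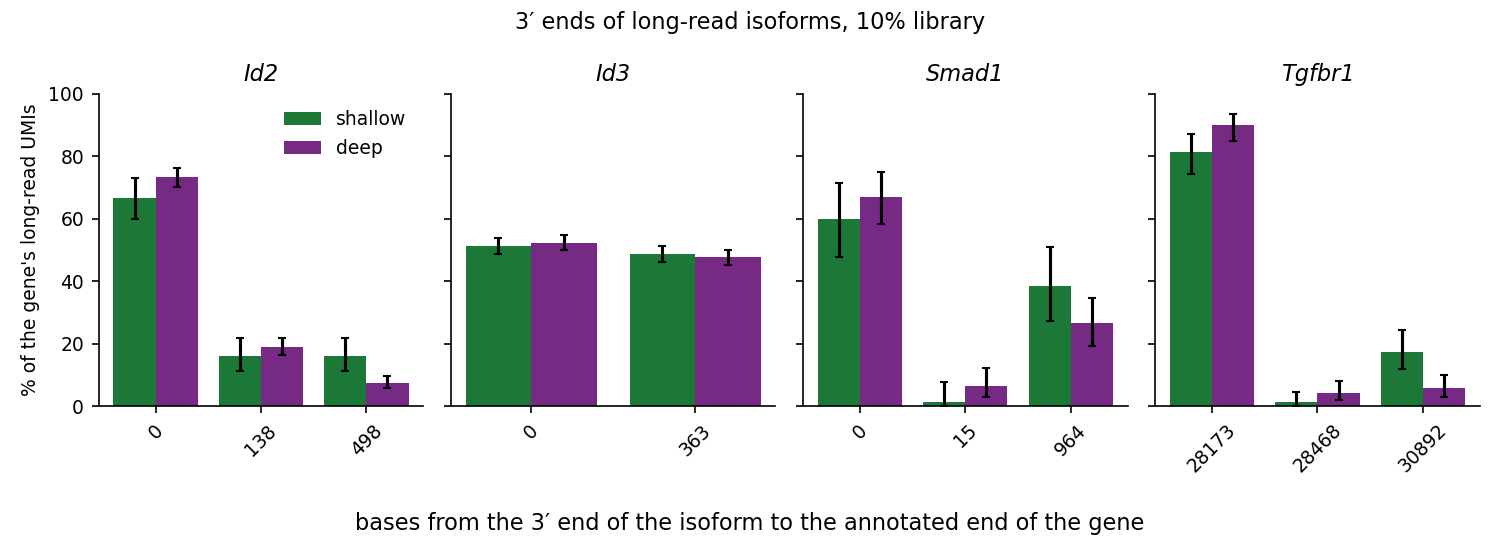
Share in percent of the long-read UMIs of Id2, Id3, Smad1 and Tgfbr1 by 3′ end, given as bases to the annotated gene end, in shallow and deep barcodes of the 10% library. Error bars are exact binomial 95% intervals and ends with at least 2% of the UMIs are drawn. Id3 has nearly equal shares at its ends in both classes, while the Id2 end 498 bases from the gene end took 15.9% in shallow and 7.54% in deep barcodes.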

How the data were processed

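The authors deposited short-read counts of UMIs for each gene (scPipe, both libraries) and nanopore counts of UMIs for each isoform (FLAMES, 10% library), on mm10 with Gencode vM24. The submitters' processing notes name Cell Ranger 1.3, minimap2 2.17 and GRCm38.p6. The deposited counts are not normalized. Gene symbols and positions were taken from Gencode vM21 and promoter windows from RefSeq, in which 8 of the 10 members had an entry. Of the gene identifiers, 39 and 58 had no symbol.

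UMIs were summed over the barcodes of a class and divided by all UMIs of that class (CPM). Intervals are exact Poisson for CPM, exact conditional for ratios, Clopper-Pearson for shares and Newcombe for differences of shares. A gene was called at a 2-fold ratio in the same direction in both libraries, with at least 50 UMIs over both classes in each, and an isoform at a difference of 20 points. A class with 0 UMIs was set to 3 counts for ratios. Thinning drew 3000 UMIs per barcode. The genes named are the 10 members, up to 3 genes per list and direction with the largest ratios, genes at 0, and the 5 genes closest to Id1 and to Id3 over depth bins. Cdkn1a, Bmp6 and Tgfbr3 were named after their values were seen. The members, lists and classes were chosen with earlier results of these data known. Calls and intervals were tested on simulated data. These were independent Poisson and binomial counts without spread between barcodes, so the simulation does not cover such spread. Alternatives were other bounds, scales and minimums, and subsets of barcodes. Python 3.11.15, numpy 2.4.6, scipy 1.17.1, pandas 2.3.3 and matplotlib 3.10.9 were used.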

Additional observations from a re-analysis of the deposited data

Results flagged for a closer look

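Id2, Bmpr1a and Tgfbr2 had short-read ratios of shallow to deep barcodes on opposite sides of 1 in the 2 libraries: 1.08 and 0.831 for Id2, 1.05 and 0.943 for Bmpr1a, and 1.02 and 0.957 for Tgfbr2. The difference between the libraries was not tested.

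The long reads hold 7 Smad6 UMIs, all in barcodes that belong to neither class by their short-read UMIs in the 10% library. Of these, 5 lie in 1 barcode with 2335 short-read UMIs in the 10% library and 4660 in the 90% library, and the other 2 in barcodes of 10 and 12 short-read UMIs.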

How the results depend on the processing

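Intervals cover counting error in 1 capture, and the 2 libraries share cells, so agreement between them is not independent support. Depth limits the low members most: the interval of Tgfbr2 in the 10% library reaches 2-fold in both directions (0.457 to 2.05). The count of members at least 2-fold higher, 2 in the report, was 1 (Id3) without barcodes of at least 2 UMIs of other cell types and 1 (Id3) with at least 200 UMIs per gene, each with 3 members left to count. It was 3, with Smad7 added, at 1.5-fold and, in an alternative chosen after seeing the data, for ratios over the median gene, where 17.6% of all genes pass. From 1 library alone it ranged from 3 to 3, with Smad1 added in the 90% library and Smad7 in the 10% library. The count of members 2-fold lower was 0 under each alternative run. The Id3 ratio of the 10% library was 4.19 with an upper bound of 10000 UMIs, 3.37 as a mean over barcodes, 2.58 without barcodes of other cell types, and, in alternatives chosen after seeing the data, 2.62 at or below the median immediate-early level, 3.39 without Myod1 and 4.88 over the median gene. In the 90% library it was 4.65 with deep barcodes from 40000 UMIs, 4.93 without barcodes of other cell types, and, chosen after seeing the data, 2.97 at or below the median immediate-early level and 5.77 over the median gene. The share of shallow barcodes with an Id3 UMI in the 90% library was 63.9% without thinning, against 56.2%. Tgfbr1 kept its direction in all 10 and 12 alternatives, from 2.50 to 4.95 and from 2.97 to 4.51, and Smad7 too, from 1.65 to 5.28 and from 1.62 to 2.28. Id2 was the 1 isoform call under each alternative that gave a value. With isoforms of reference name alone no member could be tested, and without the barcodes both libraries hold the 10% library kept too few for a count. No paired analysis was possible because each library is 1 sample and no result comes from a test.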
